A study of Homo sapiens with 3 samples.

Results

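The genes described here are the 48 of 36601 counted genes whose symbol begins with PSM, followed by a letter from A to G and a number, and which encode subunits of the proteasome or proteins that activate, block or assemble it. They were measured in OVCAR3, an established line derived from a high-grade serous tumour of the ovary, by droplet single-cell RNA-seq from the 3′ end of transcripts. The study asked how inhibitors of the small GTPase RAC1 and of the histone methyltransferase EZH2, alone and together, affect subpopulations of these cells. The DMSO library held cells given vehicle, the RAC1i library cells given 50 μM NSC23766, an inhibitor of RAC1, and the Combo library cells given 50 μM NSC23766 plus 5 μM GSK126, an inhibitor of EZH2. Treatment lasted 48 hours in each case, all cultures were the same cell line in medium with 10% FBS, and there was 1 library per condition. A library of cells with GSK126 alone was not analysed here, so no value below is for EZH2 inhibition by itself.

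The proteasome degrades proteins that carry ubiquitin chains. Its barrel-shaped 20S core is built of outer alpha rings, which gate the entry, and inner beta rings, of which 3 subunits cut peptide bonds: PSMB5 (chymotrypsin-like), PSMB6 (caspase-like) and PSMB7 (trypsin-like). The 19S regulatory particle on its end has a base of ATPases that unfold substrates and a lid that removes ubiquitin, and core and 19S together make the 26S proteasome. In immune cells, and in other cells after interferon, PSMB8, PSMB9 and PSMB10 take the places of PSMB5, PSMB6 and PSMB7 to form the immunoproteasome, which changes the peptides made for MHC class I. Tumour cells depend on the proteasome to clear surplus and damaged protein, and the transcription factor NFE2L1 is known to raise subunit genes together when proteasome activity falls short.

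After limits on quality, DMSO held 7531 cells and 199063947 UMIs, RAC1i 10215 cells and 234969742 UMIs, and Combo 8239 cells and 212792113 UMIs (unique molecular identifiers, each standing for 1 captured transcript). Levels are given as CPM, the UMIs of a gene per 1000000 UMIs over the kept cells of a library. A captured transcript gives 1 UMI whatever its length, so CPM was not divided by length. Intervals in parentheses are 95% intervals for counting error only and say nothing of how repeated cultures would vary. With 1 library per condition no test was possible, and a fixed rule of size stood in for one: a gene that reached 10 CPM in 1 library of a pair counted as past the fold when its log2 CPM ratio was over 0.32 or under -0.32. The RAC1i and Combo comparisons share the DMSO library and are not independent. Median depth differed between libraries (26750, 20989 and 24953 UMIs per cell in DMSO, RAC1i and Combo) and so did the median mitochondrial share (5.60%, 1.66% and 1.58%). Counts under settings that change the depth, or the handling of mitochondrial UMIs, are given below. Whether either difference caused a result was not tested. All 8 epithelial markers were present in each library, but all 8 were lower in both treated libraries. EPCAM was at 320, 274 and 302 CPM, KRT19 at 463, 225 and 250 CPM, PAX8 at 355, 54.3 and 47.8 CPM and MUC16 at 137, 43.3 and 37.6 CPM. Of the leukocyte markers PTPRC was at most 0.0213 CPM, LYZ was at 0.246, 0.621 and 0.503 CPM and CD79A at 0.0653, 2.23 and 2.32 CPM.

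Of the 48 genes, 45 reached 10 CPM. The others were PSMB9, PSMA8, a testis form of an alpha subunit (1, 0 and 1 UMIs in DMSO, RAC1i and Combo), and PSMB11, the catalytic subunit of the thymus (0, 6 and 3 UMIs). For PSMB11 in DMSO, 0 of 7531 cells allows a share of cells with a UMI of up to 0.0398%.

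The proteasome genes went both ways, as genes in general did, but over a narrower range. Over all kept cells, the quartiles of their log2 ratios were -0.34 and 0.40 in RAC1i. Those of all genes tested were -0.98 and 0.51. In Combo the quartiles were -0.29 and 0.45, against -0.91 and 0.47. In RAC1i over DMSO, 13 of the 45 were past the fold higher and 12 past it lower, where 31.0% of all 8778 genes tested were higher and 45.7% lower. Their median log2 ratio was 0.00, beside -0.20 over all genes tested. In Combo over DMSO, 15 were higher and 9 lower, where 30.2% of all 8745 genes tested were higher and 44.8% lower, and the median was 0.12 beside -0.18. The count rests in part on the scaling: with TMM factors the higher and lower counts became 15 and 9 for RAC1i and 20 and 6 for Combo, and with DESeq2 size factors 16 and 7 and 20 and 6. It turned with the depth and weight of cells: among cells of 10000 to 20000 UMIs, 7 were higher and 17 lower in RAC1i and 6 and 17 in Combo, and with the mean over cells of CPM 8 and 17 in RAC1i and 6 and 15 in Combo. With each cell thinned at random to 5000 UMIs, 11 were higher and 14 lower in RAC1i and 11 and 13 in Combo. Without mitochondrial UMIs in the total, the counts were 12 and 13 in RAC1i and 13 and 13 in Combo. The shares of all genes past the fold under these settings were not calculated, so these counts cannot be set against genes in general. Among cells of 10000 to 20000 UMIs the median of all genes was lower too. It was -0.24 in RAC1i, beside -0.14 for the proteasome genes, and -0.29 in Combo, beside -0.19. The median of all genes moved to -0.07 for RAC1i and -0.04 for Combo under DESeq2 size factors. With the mean over cells of CPM the medians lay closer together. They were -0.16 for the proteasome genes beside -0.17 for all genes in RAC1i, and -0.09 beside -0.15 in Combo. At a stricter fold of 1.5, 7 were higher and 6 lower in RAC1i (22.7% and 36.9% of all genes tested) and 8 and 6 in Combo (21.3% and 35.4%).

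**Figure D1:**
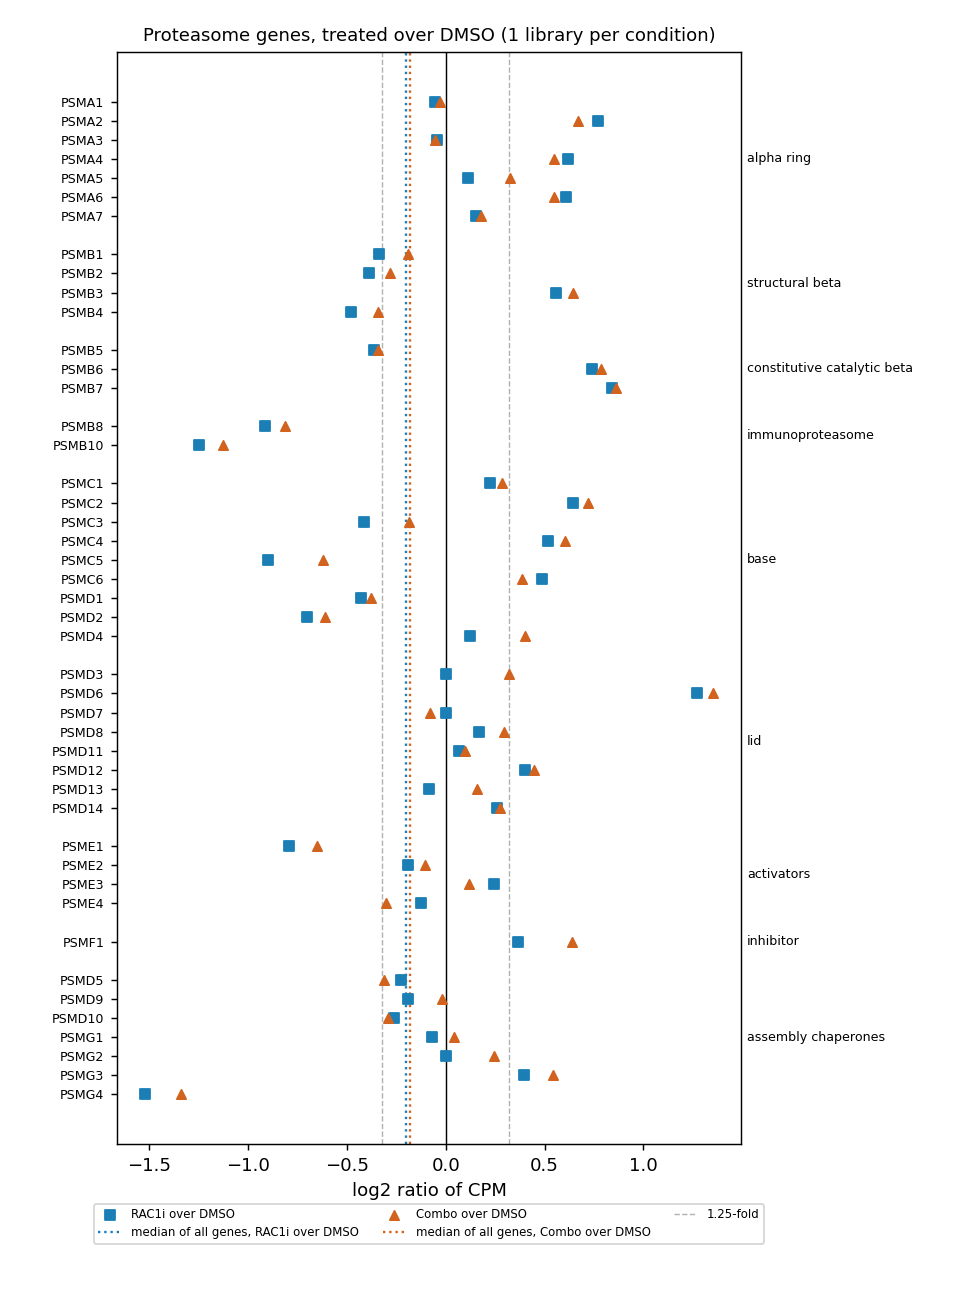
log2 ratio of CPM over DMSO (x axis) for the 45 genes that reached 10 CPM, grouped by role, with squares for RAC1i, triangles for Combo, dashed lines at the limits of 0.32 and -0.32 and dotted lines at the median of all genes tested. PSMD6 lies furthest right at 1.27 and 1.35, PSMG4 furthest left at -1.52 and -1.34, and both sides of 0 are occupied within the base and the beta rings.

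The 3 catalytic subunits of the immunoproteasome were lower in both treated libraries. PSMB10 (ENSG00000205220, chr16:67934506-67936864, minus strand), the form that replaces PSMB7, was at 64.8 CPM in DMSO, 27.3 in RAC1i and 29.6 in Combo, ratios to DMSO of 0.421 (0.409 to 0.434) and 0.457 (0.444 to 0.471). PSMB8 (ENSG00000204264, chr6:32840717-32844679, minus strand), which replaces PSMB5, was at 34.2, 18.1 and 19.5 CPM, ratios of 0.530 (0.510 to 0.551) and 0.570 (0.548 to 0.592). PSMB9 (ENSG00000240065, chr6:32844136-32859851, plus strand), which replaces PSMB6, was at 9.32, 3.12 and 4.11 CPM. Its ratios were 0.335 (0.307 to 0.365) and 0.441 (0.406 to 0.478), but it stayed below the 10 CPM minimum and was not counted. Summed, the 3 genes had 108 CPM in DMSO, 48.5 in RAC1i and 53.2 in Combo. Lower levels were common: 45.7% of all genes tested were past the fold lower in RAC1i and 44.8% in Combo. The lower quartile of log2 ratios over all genes tested was -0.98 in RAC1i and -0.91 in Combo. PSMB8 lay above it, at -0.92 and -0.81, and PSMB10 below it, at -1.25 and -1.13. The 10th percentile of all genes tested was lower still, at -1.72 and -1.62.

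Their constitutive counterparts split. PSMB7 was at 221, 397 and 402 CPM and PSMB6 at 184, 308 and 318 CPM, ratios to DMSO of 1.79 and 1.82 for PSMB7 and of 1.67 and 1.72 for PSMB6. PSMB5, the subunit that the drug bortezomib binds most strongly, was at 278, 216 and 219 CPM, ratios of 0.778 (0.769 to 0.787) and 0.788 (0.778 to 0.798). PSMB5 thus had the highest level of the 3 in DMSO and the lowest in both treated libraries. Its calls held under 7 of 11 alternative settings in RAC1i and 8 in Combo. With TMM factors it was past the fold in neither, at log2 ratios of -0.28 and -0.25.

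Set against its counterpart within a library, where the library total cancels, each immunoproteasome gene had a smaller share after treatment. PSMB10 had 29.3% (28.7 to 29.8) as many UMIs as PSMB7 in DMSO, 6.87% (6.70 to 7.05) in RAC1i and 7.37% (7.18 to 7.56) in Combo. PSMB9 had 5.05%, 1.01% and 1.29% as many UMIs as PSMB6. PSMB8 had 12.3%, 8.38% and 8.89% as many as PSMB5, the smallest difference of the 3, with PSMB5 itself lower after treatment. Among cells with 10000 to 20000 UMIs the PSMB8 values came closer, at 13.7%, 10.0% and 12.1%.

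**Figure D2:**
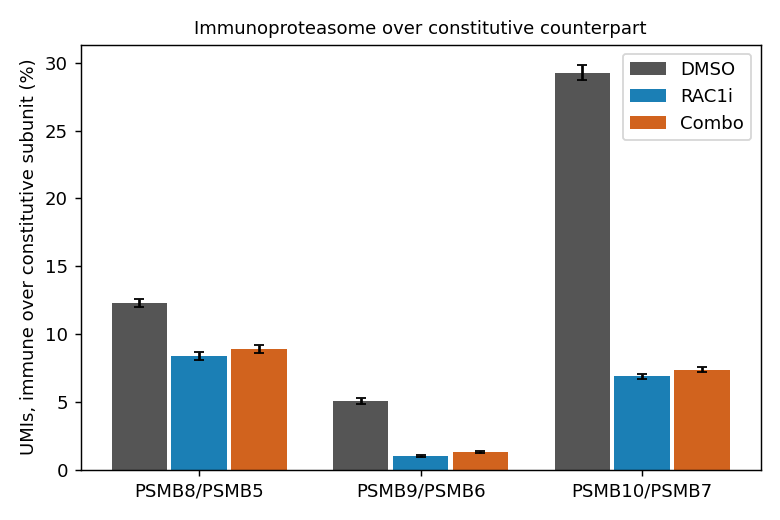
UMIs of each immunoproteasome gene as a percent of those of its constitutive counterpart (y axis), per library (bars, starting at 0), with 95% counting intervals. PSMB10 over PSMB7 shows the widest gap, 29.3% in DMSO against 6.87% in RAC1i and 7.37% in Combo.

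The lower level was also seen as fewer cells with a UMI. With each cell thinned to 5000 UMIs, which left 6725, 9200 and 7354 cells and set aside 806, 1015 and 885 shallower ones, PSMB10 had a UMI in 27.6% of the thinned cells in DMSO, 12.4% in RAC1i and 14.6% in Combo (71.4%, 38.9% and 44.6% without thinning). PSMB8 was found in 16.4%, 8.40% and 9.33% of thinned cells and PSMB9 in 4.49%, 1.40% and 1.84% (52.4%, 30.1% and 34.3%, and 19.03%, 6.59% and 9.41% without thinning). The culture holds no cell type known to lack these genes, so the share that free RNA gives could not be measured.

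PSMB8 and PSMB9 lie beside the peptide transporter genes TAP1 and TAP2 in the MHC region of chromosome 6, and interferon acts on this group through the interferon-stimulated response element, whose core was searched here as GAAA, any 2 bases and GAAA. RefSeq promoters (250 bases before to 50 after a start site, GRCh38.p14) were at hand for 42 of the 48 genes, and 7 of the 42 (16.7%) held this motif on either strand, against 4.38% of 27305 genes. The 7 matches, and that of TAP1, are shown so that their letters can be read beside the ratios of these genes. Each line gives 30 bases read on the strand that spells the motif, with the motif in capitals (in TAP1, a pair of overlapping matches).
PSMB8, chr6:32844032-32844061, plus strand: aggaggaagtGAAAGCGAAAgccacagatc
PSMB10, chr16:67936852-67936881, minus strand: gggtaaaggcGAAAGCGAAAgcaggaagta
PSME1, chr14:24136189-24136218, minus strand: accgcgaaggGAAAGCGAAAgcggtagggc
PSME2, chr14:24146619-24146648, minus strand: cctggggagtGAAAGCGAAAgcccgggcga
PSMG4, chr6:3258904-3258933, plus strand: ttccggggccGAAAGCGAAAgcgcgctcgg
PSMB4, chr1:151399495-151399524, plus strand: tcgtctacagGAAAAAGAAAgaaatgacac
PSMA4, chr15:78540155-78540184, plus strand: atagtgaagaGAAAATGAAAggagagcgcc
TAP1, chr6:32853816-32853845, plus strand: tttagggGAAAGCGAAATCGAAAgcggccg
PSMB8, PSMB10, PSME1, PSME2, PSMG4 and TAP1 share the 10 bases GAAAGCGAAA. Of the 7 proteasome genes with the motif, 5 were past the fold lower in both treated libraries (PSMB4, PSMB8, PSMB10, PSME1 and PSMG4), PSMA4 was higher and PSME2 was past it in neither, where 45.7% and 44.8% of all genes tested were lower. In RAC1i over DMSO, PSMG4 reached 10 CPM only through DMSO, where it was high. PSMB9 had no match in its window. The TAP1 stretch lies further upstream of the PSMB9 start site, between the start sites of TAP1 and PSMB9. A match is a description of the letters and not a shown binding site.

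PSMB9 and TAP1 lie on opposite strands and went opposite ways, with 487 bases between the start sites that the RefSeq promoters give (the GENCODE span of PSMB9 printed above begins further upstream). TAP1, a subunit of the pump that carries peptides into the endoplasmic reticulum, was at 5.42 CPM in DMSO, 15.1 in RAC1i and 16.9 in Combo, ratios of 2.78 (2.60 to 2.98) and 3.11 (2.91 to 3.33), while PSMB9 was lower as given above. TAP2, its partner, was at 11.2, 5.04 and 4.81 CPM. PSMB9 overlaps both TAP1 and PSMB8 on the opposite strand in GENCODE 44. Of the 4 antigen-loading genes with enough UMIs, TAP1 and B2M (443, 625 and 601 CPM) were past the fold higher, and TAP2 and TAPBP lower, beside 31.0% and 45.7% of all genes tested in RAC1i and 30.2% and 44.8% in Combo. TAP1 and TAP2 reached the minimum of 10 CPM only in the libraries where they were high. ERAP1, which trims peptides, stayed under the minimum at 4.75, 1.80 and 1.64 CPM.

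Of 8 regulators of proteasome genes with enough UMIs, 3 were past the fold higher and 2 lower in each comparison, beside 31.0% and 45.7% of all genes tested in RAC1i and 30.2% and 44.8% in Combo. IRF1, which acts on immunoproteasome genes, was at 13.9, 61.2 and 70.0 CPM, a ratio of 4.41 in RAC1i and 5.03 in Combo. NLRC5, the activator of MHC class I genes, had at most 0.914 CPM. NFKB1 was at 21.1, 55.8 and 39.7 CPM and RELA at 31.6, 45.4 and 49.1 CPM, both past the fold higher.

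In the treated libraries PSMB10 was lower in cells with a UMI of CXCL8 or IL6, inflammatory targets of NF-kB, than in cells without. Among thinned RAC1i cells PSMB10 was at 23.9 CPM (21.7 to 26.1) in the 3864 cells with such a UMI and at 29.7 CPM (27.7 to 31.9) in the 5336 without. In Combo it was at 27.7 CPM (24.7 to 31.0) in 2165 cells and 34.6 CPM (32.4 to 37.0) in 5189. In DMSO, with 133 cells that had such a UMI, the values were 66.2 CPM (48.1 to 88.8) and 66.6 CPM (63.8 to 69.4). PSMB5 was lower in such cells too in RAC1i, at 193 CPM (187 to 199.7) against 208 CPM (203 to 214). The intervals of PSMB8 and PSMB9 overlapped between the 2 kinds of cell in each library. Other genes differed slightly in RAC1i, with overlapping intervals. PSME1 was at 137 CPM with such a UMI against 143 without, and PSME2 at 169 against 178. PSMB6 was at 298 against 300, and PSMB7 was higher, at 397 against 385. The share of all genes that differed between such cells was not calculated, so no difference is particular to PSMB10. Cells of 1 culture are not replicates, so these are descriptions of each library.

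The activators of the proteasome, which open the alpha ring, summed to 531 CPM in DMSO, 409 in RAC1i and 424 in Combo. PSME1 and PSME2 form together the interferon-responsive activator PA28, and their balance shifted. PSME1 was at 236, 136 and 150 CPM, ratios of 0.577 (0.569 to 0.586) and 0.637 (0.628 to 0.647), whereas PSME2 was at 199, 175 and 186 CPM, ratios of 0.877 and 0.931. PSME2 had 84.6% (83.5 to 85.8) as many UMIs as PSME1 in DMSO, 129% (127 to 130.4) in RAC1i and 124% (122 to 125) in Combo. PSME3, the nuclear activator, was at 38.5, 45.7 and 41.8 CPM, and PSME4, which caps proteasomes in the nucleus, was at 57.4, 52.6 and 46.5 CPM, and neither was past the fold. PSMF1, first described as an inhibitor of the core, was at 34.8, 44.9 and 54.3 CPM, ratios of 1.29 (1.252 to 1.33) and 1.56 (1.51 to 1.61).

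Within the core, the 7 genes of the alpha ring summed to 2636 CPM in DMSO, 3348 in RAC1i and 3317 in Combo. Past the fold, 3 were higher and 0 lower in RAC1i and 4 and 0 in Combo, beside 31.0% and 45.7% of all genes tested in RAC1i and 30.2% and 44.8% in Combo. With the mean over cells of CPM, PSMA1 was past it lower in both, at log2 ratios of -0.34 and -0.37. PSMA2 was at 333, 568 and 530 CPM (ratios 1.71 and 1.59), PSMA6 at 511, 780 and 747 CPM (1.53 and 1.46) and PSMA4 at 175, 268 and 256 CPM (1.53 and 1.46). In Combo these 3 were not past the fold among cells of 10000 to 20000 UMIs, at log2 ratios of 0.13, 0.23 and 0.24. There the summed ring had a log2 ratio of 0.01, against 0.33 over all kept cells. In RAC1i the summed ring had 0.10 with the mean over cells of CPM, against 0.34. PSMA5, the lowest of the ring in DMSO, was at 169, 183 and 212 CPM and past the fold in Combo, with a log2 ratio of 0.33, but not in RAC1i, with 0.11. Its Combo call held under 4 of 11 alternative settings, and the ratio was -0.084 among cells of 10000 to 20000 UMIs. PSMA7, the most abundant proteasome transcript in each library, was at 1018, 1134 and 1153 CPM. PSMA1 and PSMA3 had ratios between 0.962 and 0.981.

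Of the 4 structural beta subunits, which have no active site of their own, 1 was past the fold higher and 3 lower in RAC1i, and 1 higher and 1 lower in Combo, where the same shares of all genes apply. PSMB4 was at 282, 202 and 222 CPM (ratios 0.717 and 0.787), PSMB1 at 333, 264 and 291 CPM (0.792 and 0.875) and PSMB2 at 194, 148 and 160 CPM (0.763 and 0.822). PSMB3 was higher at 218, 321 and 341 CPM, ratios of 1.47 (1.46 to 1.49) and 1.57 (1.55 to 1.58). PSMB1 and PSMB2 were past the fold in RAC1i but not in Combo, and the difference between the treated libraries was below the limit for each. Their RAC1i calls held under 7 and 8 of 11 alternative settings, and in Combo they were past the fold lower under 3 and 4. Subunits that occur once per beta ring thus differed in direction, and the summed level of the 4 was 1027, 935 and 1014 CPM.

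**Figure D3:**
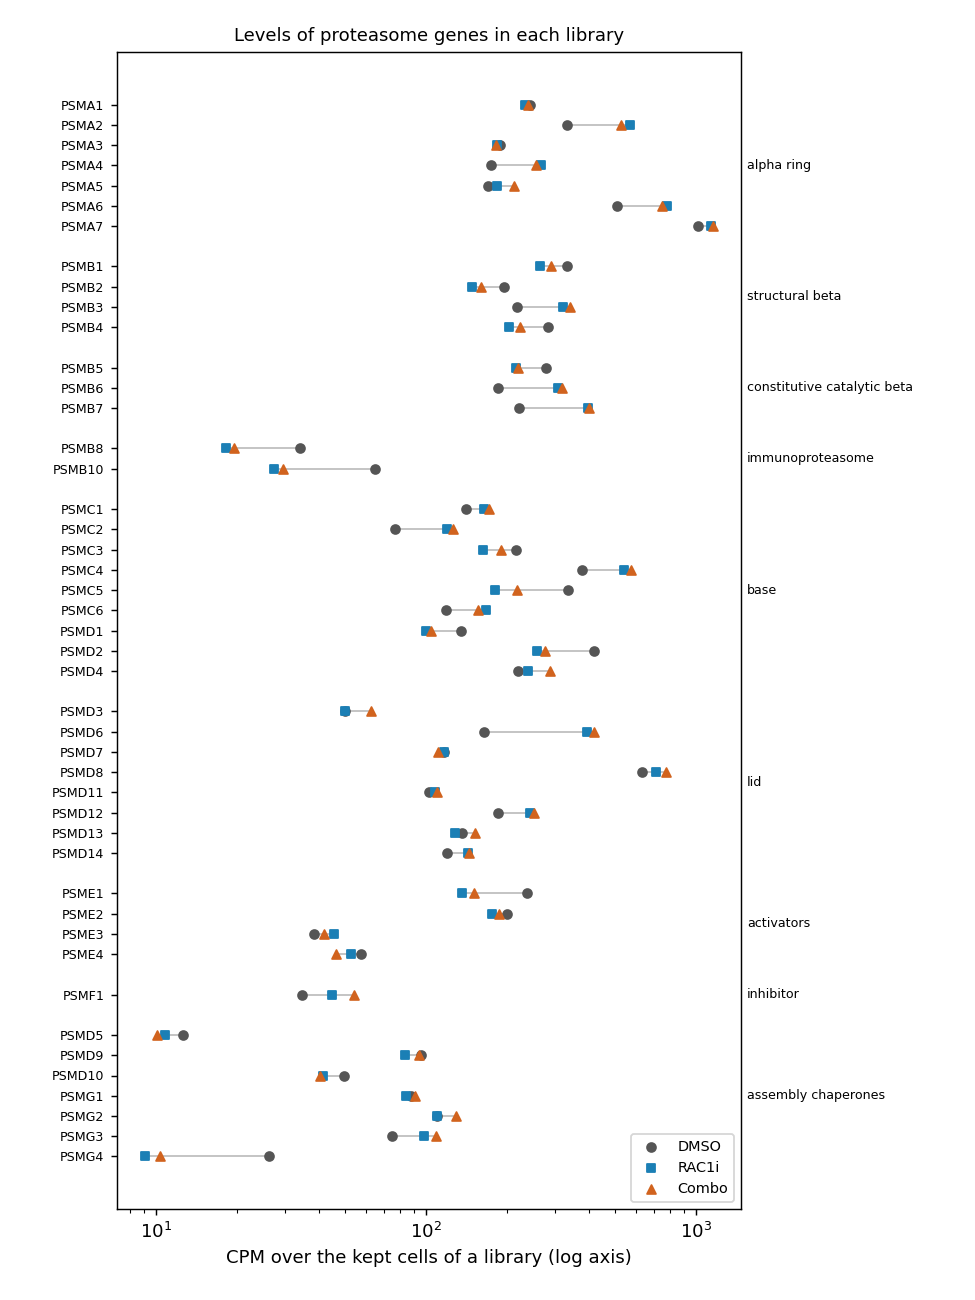
CPM over the kept cells of each library (x axis, log scale) for the 45 genes, grouped by role, with circles for DMSO, squares for RAC1i and triangles for Combo joined by a line per gene. Levels run from about 10 CPM for PSMD5 and PSMG4 to 1153 CPM for PSMA7 in Combo, and the squares and triangles lie closer to each other than to the circles for most genes past the fold.

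The base of the 19S particle was divided as well, and its sum was nearly equal in the libraries (2038, 1927 and 2100 CPM). Among the ATPases, PSMC5 was at 335, 180 and 217 CPM, ratios of 0.537 (0.530 to 0.543) and 0.649 (0.642 to 0.657), and PSMC3 at 216, 162 and 190 CPM (0.751 and 0.878). PSMC4 was at 377, 540 and 572 CPM (1.43 and 1.52), PSMC2, the lowest of the base in DMSO, at 76.6, 120 and 126 CPM (1.56 and 1.65) and PSMC6 at 119, 166 and 155 CPM (1.40 and 1.31). The Combo call of PSMC6 held under 6 of 11 alternative settings, and its log2 ratio was -0.063 among cells of 10000 to 20000 UMIs. PSMC4 held its calls under 8 of 11 in RAC1i and 9 in Combo, with log2 ratios of 0.22 and 0.20 in those cells. PSMC1 was past the fold in neither, at 141, 164 and 171 CPM. The 6 ATPases form a single ring, so these transcripts of a fixed-ratio assembly went both ways.

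The large scaffold subunits of the base, PSMD2 and PSMD1, were lower. PSMD2 (ENSG00000175166, chr3:184299198-184309050), the most abundant gene of the base in DMSO, was at 420, 258 and 275 CPM, ratios of 0.613 (0.607 to 0.620) and 0.655 (0.648 to 0.662). PSMD1 was at 135, 100.3 and 104 CPM (0.742 and 0.770). PSMD4, a receptor for ubiquitin chains, was at 219, 238 and 289 CPM, past the fold in Combo by 1.32 (1.31 to 1.34) and not in RAC1i at 1.09 (1.07 to 1.10).

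The 8 lid genes with a PSMD symbol summed to 1505, 1896 and 2025 CPM. Past the fold, 2 were higher and 0 lower in each comparison, beside 31.0% and 45.7% of all genes tested in RAC1i and 30.2% and 44.8% in Combo. The small lid subunit SEM1, without a PSMD symbol, is not among the 8. At 388, 269 and 291 CPM, SEM1 was past the fold lower in both comparisons. Among cells of 10000 to 20000 UMIs PSMD13 was past it lower in RAC1i (log2 ratio -0.33) and PSMD7 in Combo (-0.40). In those cells the summed lid genes had log2 ratios of 0.13 in RAC1i and 0.09 in Combo, against 0.33 and 0.43 over all kept cells. PSMD6 (ENSG00000163636, chr3:64010550-64024010, minus strand), a scaffold subunit of the lid, differed most among the genes that were higher. It was at 164 CPM in DMSO, 396 in RAC1i and 418 in Combo, ratios of 2.42 (2.39 to 2.45) and 2.55 (2.52 to 2.58). Antisense genes overlap PSMD6, and their part in its counts was not tested. PSMD12 was at 184, 243 and 251 CPM (1.32 and 1.36). PSMD14, the deubiquitinase of the lid, was at 119, 143 and 145 CPM (log2 ratios 0.26 and 0.28) and past the fold in neither. PSMD8, the most abundant lid gene, was at 632, 711 and 777 CPM, PSMD3, the least abundant, at 50.2, 50.2 and 62.6 CPM, and PSMD7, PSMD11 and PSMD13 had ratios from 0.944 to 1.12.

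Of the 7 assembly chaperones with a PSMG or PSMD symbol, 1 was past the fold higher and 1 lower in each comparison, beside 31.0% and 45.7% of all genes tested in RAC1i and 30.2% and 44.8% in Combo. PSMG3 and PSMG4 act as a pair in building the alpha ring, and their transcripts went opposite ways over all kept cells, though not among cells of 10000 to 20000 UMIs, where PSMG3 had log2 ratios of -0.0083 and -0.027. With the mean over cells it was past the fold in neither (0.10 and 0.21). PSMG4 (ENSG00000180822, chr6:3231403-3303373, plus strand) was at 26.2, 9.12 and 10.3 CPM, ratios of 0.348 (0.331 to 0.367) and 0.395 (0.376 to 0.415), the lowest ratios among the 45. In the comparison with RAC1i only its DMSO level, the high one, reached the minimum of 10 CPM. PSMG3 was at 74.6, 98.3 and 109 CPM, ratios of 1.32 (1.29 to 1.35) and 1.46 (1.43 to 1.49). Their partner pair, PSMG1 (88.3, 84.0 and 90.9 CPM) and PSMG2 (109, 110 and 130 CPM), was past the fold in neither comparison, nor were the base chaperones PSMD5 (12.6, 10.8 and 10.1 CPM), PSMD9 (95.7, 83.9 and 94.4 CPM) and PSMD10 (49.7, 41.5 and 40.6 CPM). In Combo PSMD5 was past it lower under 6 of 11 other settings and PSMD10 under 5, down to log2 ratios of -0.72 and -0.60 among cells of 10000 to 20000 UMIs. POMP, the chaperone that matures the core and is then degraded by it, was at 366, 593 and 535 CPM, ratios of 1.62 and 1.46.

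Summed over the 31 genes of the constitutive 26S proteasome, transcripts made up 0.789% of UMIs in DMSO, 0.903% in RAC1i and 0.940% in Combo. This sum depended on the depth of the cell. In cells with under 5000 UMIs it was 10301 CPM in DMSO, 4953 in RAC1i and 4723 in Combo, and in cells with 40000 or more it was 7273, 9219 and 9867. Between 10000 and 20000 UMIs the libraries nearly met, at 8702 (8655 to 8750), 8673 (8644 to 8702) and 8453 CPM (8415 to 8491). The treated libraries were therefore lower than DMSO among shallow cells and higher among deep ones. The shallowest treated cells also had the highest median mitochondrial share of their libraries (6.33% in RAC1i and 7.02% in Combo), whereas DMSO cells with under 5000 UMIs had 1.12%, and the part of either in the result was not tested.

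**Figure D4:**
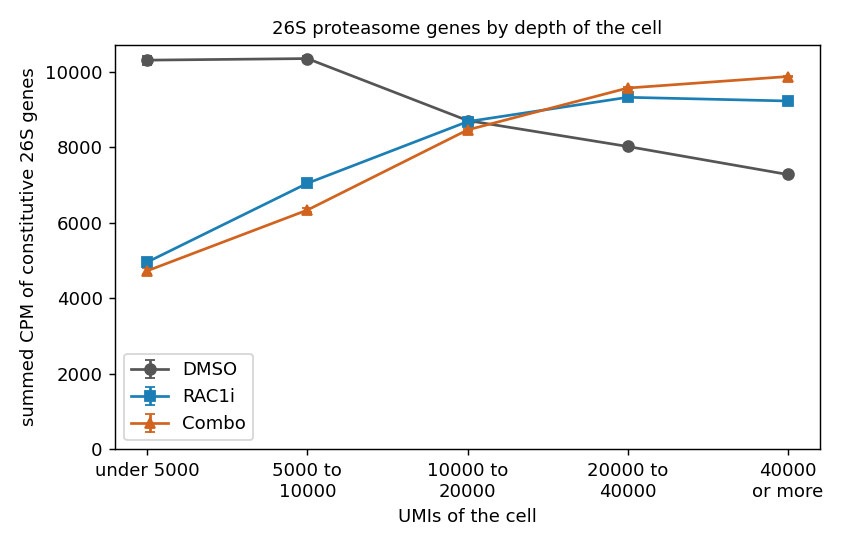
Summed CPM of the 31 constitutive 26S genes (y axis, from 0) by the number of UMIs of the cell (x axis, 5 ranges) in each library, with 95% counting intervals that are mostly smaller than the symbols. DMSO runs from 10301 CPM in the shallowest cells to 7273 in the deepest, RAC1i from 4953 to 9219 and Combo from 4723 to 9867, and the 3 lines come together in the range of 10000 to 20000 UMIs.

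The sum of the immunoproteasome genes did not cross. It was 158 CPM in DMSO cells with under 5000 UMIs and 103 CPM in those with 40000 or more, and between 46.8 and 67.2 CPM in every depth range of RAC1i and Combo. PSMD6 likewise kept its direction within depth ranges, with a log2 ratio in RAC1i of 1.02 among cells with 10000 to 20000 UMIs and 1.26 among those with 20000 to 40000. PSMG4 had -2.01 and -1.48, PSMC5 -1.01 and -0.91, and PSMB7 0.63 and 0.86 in the same ranges. Genes with small ratios did not all keep theirs: PSMG3 had -0.01 and 0.46.

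Under the 11 alternative settings that change the cells or the scaling, 7 of the 13 genes higher in RAC1i were past the fold in every one, namely PSMA2, PSMA4, PSMA6, PSMB6, PSMB7, PSMC2 and PSMD6. The same held for 7 of the 12 lower, PSMB4, PSMB8, PSMB10, PSMC5, PSMD2, PSME1 and PSMG4. For Combo it held for 6 of 15 higher (PSMB3, PSMB6, PSMB7, PSMC2, PSMD6 and PSMF1) and 6 of 9 lower, PSMB8, PSMB10, PSMC5, PSMD2, PSME1 and PSMG4. The other calls did not hold under every setting. That of PSMD12 held under 7 in RAC1i and 8 in Combo, that of PSMF1 in RAC1i under 8 and that of PSMD4 in Combo under 8. The share of all genes that were past the fold under every setting was not calculated. The counts therefore describe single genes and do not set the proteasome genes apart from others.

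Across thinned cells, the UMIs of core genes and of 19S genes went together to an extent that differed between libraries. Pearson's r over cells of 1 library was 0.51 in DMSO (6725 cells), 0.30 in RAC1i (9200) and 0.37 in Combo (7354). Between core and immunoproteasome genes it was 0.09, -0.01 and -0.01, at a mean of 0.562, 0.239 and 0.281 immunoproteasome UMIs per thinned cell. These values share the library and the fixed UMI total and are descriptions only.

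The effect of adding GSK126 to NSC23766 is addressed by Combo over RAC1i. Here 0 of the 45 were past the fold in either direction, where 4.66% of all 7443 genes tested were higher and 5.08% lower, and none was at a fold of 1.5 (0.175% and 0.484%). The count was 3 higher among G1 cells, 2 higher and 1 lower among cells of 10000 to 20000 UMIs, and 1 higher with TMM scaling or a mitochondrial limit of 10%. Shares of all genes under these settings were not calculated. The log2 ratios ran from -0.18 to 0.32 with a median of 0.09, beside 0.01 over all genes. The ratio was above 1 for 35 of the 45, and 35 also lay above the median of all genes tested, with 10 below it. The exact share of all genes with a ratio above 1 was not calculated. For the COP9 signalosome and the TRiC chaperonin, described below, the ratio was above 1 for 8 of 10 and 5 of 8 genes. PSMD3 came nearest to the threshold with a log2 ratio of 0.32 and was past it under 4 of 11 other settings, followed by PSMD4 at 0.28 and PSMC5 at 0.27. With 1 library per condition, differences of this size cannot be told apart from those between cultures.

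Among 16 partners of the proteasome that are not named as its subunits, 8 were past the fold higher and 5 lower in RAC1i, and 6 and 5 in Combo, beside 31.0% and 45.7% of all genes tested in RAC1i and 30.2% and 44.8% in Combo. ZFAND2A, an arsenite-inducible protein that binds the 19S particle, was at 14.9, 79.5 and 83.5 CPM, ratios of 5.34 (5.14 to 5.55) and 5.61 (5.39 to 5.83). AKIRIN2, which brings proteasomes into the nucleus, was at 40.0, 138 and 124 CPM (log2 ratios 1.79 and 1.63), and TXNL1, a thioredoxin-like protein bound to the 19S particle, at 127, 207 and 220 CPM (log2 ratios 0.70 and 0.78). The deubiquitinases USP14 (185, 99.9 and 111 CPM) and UCHL5 (80.6, 51.9 and 52.5 CPM) and the small lid subunit SEM1 (388, 269 and 291 CPM) were lower in both. ECPAS, a scaffold that binds the 26S proteasome, was at 23.6, 9.47 and 8.22 CPM (0.402 and 0.349) and reached 10 CPM only in DMSO, where it was high. UBE3C, a ubiquitin ligase at the proteasome, was at 40.5, 50.9 and 44.2 CPM, and ZFAND5, which stimulates the proteasome, at 48.7, 63.5 and 50.8 CPM, each past the fold in RAC1i and not in Combo.

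Shuttle proteins that bring ubiquitinated substrates to the proteasome differed in direction. RAD23B was at 70.9, 111 and 101 CPM (1.57 and 1.43). UBQLN1 was at 35.8, 55.4 and 48.3 CPM (1.55 and 1.35) and UBQLN2 at 15.9, 12.5 and 11.4 CPM (0.783 and 0.717). Of 5 ubiquitin and ubiquitin-activating genes, UBB, which encodes polyubiquitin (280, 374 and 394 CPM), was past the fold higher in both, and UBA6, a ubiquitin-activating enzyme, was lower in Combo at 0.752 (0.728 to 0.777), where the same shares of all genes apply as for the partners.

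**Figure D5:**
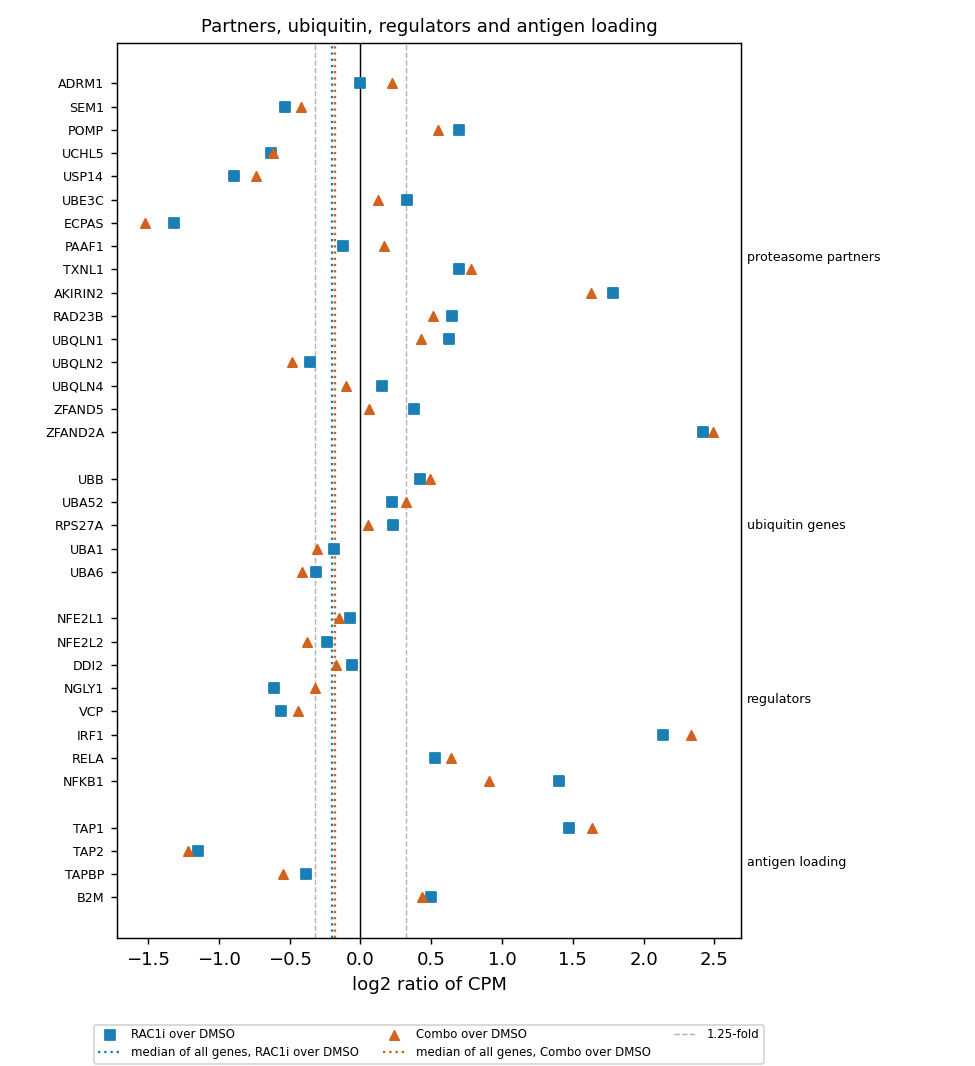
log2 ratio of CPM over DMSO (x axis) for partners, ubiquitin genes, regulators and antigen-loading genes that reached 10 CPM, with squares for RAC1i, triangles for Combo, dashed lines at the limits of 0.32 and -0.32 and dotted lines at the median of all genes tested. ZFAND2A (2.42 and 2.49), IRF1 (2.14 and 2.33), AKIRIN2 (1.79 and 1.63) and TAP1 (1.48 and 1.64) lie furthest right, and ECPAS, which reached 10 CPM only in DMSO, is at -1.32 and -1.52.

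The transcript of NFE2L1 was past the fold in neither comparison, at 51.7, 49.1 and 46.5 CPM, ratios of 0.950 (0.925 to 0.976) and 0.900 (0.875 to 0.925). NFE2L1 is controlled largely as a protein, which was not measured. Its relative NFE2L2 was at 88.0, 74.8 and 67.7 CPM, past the fold lower in Combo at 0.770 (0.753 to 0.787) and not in RAC1i. DDI2, the protease that releases NFE2L1, was at 72.1, 69.2 and 64.2 CPM. VCP, the ATPase that extracts NFE2L1 from the endoplasmic reticulum, was at 177, 120 and 130 CPM (0.679 and 0.738). NGLY1, which removes the sugars of NFE2L1, was at 16.3, 10.7 and 13.1 CPM (0.656 and 0.802). The letters TGACNNNGC, the core of the antioxidant response element that NFE2L1 and NFE2L2 bind, were in the promoters of 15 of the 42 genes (35.7%), against 16.1% of all genes. Of these 15, 4 were past the fold higher (PSMA4, PSMB3, PSMC4 and PSMD12), 3 lower (PSMC5, PSMD1 and PSME1) and 7 in neither direction, in each comparison, and PSMB9 was below the minimum. The ETS core CCGGAAG was also in 15 of the 42 promoters (35.7%, against 12.2% of all genes), 6 of them of genes past the fold higher in each comparison (PSMA6, PSMC2, PSMC6, PSMD6, PSMD12 and PSMF1), 1 lower (PSMG4), 7 in neither direction and 1 below the minimum. The kappa B letters, GGG, any 5 bases and CC, were in 31 (73.8%, against 61.7%), of which 9 were past the fold higher and 7 lower in RAC1i and 9 and 6 in Combo. The shares of all genes tested were 31.0% higher and 45.7% lower in RAC1i and 30.2% and 44.8% in Combo. Both strands were searched.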

How the data were processed

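UMI counts per gene and cell barcode of 3 libraries were used. The counts deposited by the authors came from Chromium Next GEM 3′ libraries processed with Cell Ranger 4.0.0 on GRCh38, per the submitters' processing notes, with no normalization and no later filter on cells. What follows was calculated from these counts.

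Following the study's methods, a cell was kept if it had over 1000 genes, if no more than 20% of its UMIs were mitochondrial and if the log10 of its genes over the log10 of its UMIs was over 0.8. They held 96.0%, 92.2% and 88.5% of the UMIs of DMSO, RAC1i and Combo. Pairs of libraries shared 15 to 23 kept barcodes. No caller was used to remove doublets. As an alternative, the 5% of cells with the most UMIs were left out. UMIs were summed over kept cells, and 95% intervals were calculated by the exact Poisson method (CPM), the exact conditional method (ratios) and the Clopper-Pearson method (shares). PCR copies are collapsed by UMI, but UMIs of the same cell, and cells of the same culture, are not independent samples, so intervals cover counting error only.

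Every proteasome gene could be named, with full values for PSMB5 to PSMB10, for genes past the fold and for the highest and lowest of each group. Genes of the related lists were named when past the fold, with NFE2L1, DDI2, NLRC5 and ERAP1 added after their values were seen. Some genes of the related lists are not reported here and were left out of the lists' counts. The genes and lists were chosen with earlier results of these data known.

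All 48 identifiers were found in GENCODE 44, and 18 of the genes overlap a gene on the opposite strand. The share of reads that pseudogenes or relatives could take is not known. Promoter sequence was taken from RefSeq (GRCh38.p14). Calculations used Python 3.11.15, scipy 1.17.1, scanpy 1.11.5, R 4.3.3, edgeR 4.0.16 (TMM factors), DESeq2 1.42.0 (size factors) and the cell cycle genes of Seurat 5.3.0, and the scripts were tested on simulated data. Alternatives changed the limits on cells, the scaling, the depth, the weight of cells, the cell cycle call, the fold and the minimum CPM.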

Additional observations from a re-analysis of the deposited data

How the results depend on the processing

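Each value rests on 1 library per condition, so no setting below tests how cultures vary. No paired analysis was possible because there is 1 library per condition and no result comes from a test. Of the 45 proteasome genes, 13 and 12 were past the fold higher and lower in RAC1i over DMSO (median log2 ratio 0.00), 15 and 9 in Combo over DMSO (0.12) and 0 and 0 in Combo over RAC1i. With the 970, 2641 and 1506 cells of 10000 to 20000 UMIs (DMSO, RAC1i, Combo), 7 were higher and 17 lower in RAC1i (median -0.14), 6 higher and 17 lower in Combo (median -0.19), and 2 higher and 1 lower in Combo over RAC1i. The medians of all genes tested were -0.24 in RAC1i and -0.29 in Combo there. With the mean over cells of CPM, 8 were higher and 17 lower in RAC1i (median -0.16), and 6 higher and 15 lower in Combo (median -0.092). All genes tested had medians of -0.17 and -0.15 under that setting. With DESeq2 size factors 7 were lower in RAC1i, and the medians were 0.11 and 0.24, beside -0.07 and -0.04 over all genes tested. With a fold of 1.5, 7 were higher and 6 lower in RAC1i and 8 higher in Combo. In Combo over RAC1i, 1 was higher with a mitochondrial limit of 10%, 3 among G1 cells, 1 with TMM factors, and 1 higher and 1 lower without a minimum CPM. Among genes past the fold, directions turned for PSMG3 (log2 -0.0083 in RAC1i and -0.027 in Combo), PSMA5 (-0.084) and PSMC6 (-0.063 in Combo) among cells of 10000 to 20000 UMIs, and for PSMA5 in Combo (-0.016) with the mean over cells. The cause was not tested. The remaining 91 values were counts within 1.5 times those above or medians that moved by less than 0.1 on the log2 scale. The RAC1i median, at 0.00, took either sign among them. Apart from the fold of 1.5, the shares of all genes past the fold under other settings were not calculated. The balance of counts shifted among the remaining values too. With cells thinned to 5000 UMIs, 11 were higher and 14 lower in RAC1i and 11 and 13 in Combo. Without mitochondrial UMIs in the total, the counts were 12 and 13 in RAC1i and 13 and 13 in Combo. The summed immunoproteasome genes ranged in log2 ratio from -1.23 to -1.002 in RAC1i and from -1.09 to -0.89 in Combo over the same settings, and the summed 26S genes from -0.02 to 0.31 and from -0.04 to 0.37.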

Other observations

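The COP9 signalosome, a complex built like the lid that takes NEDD8 off cullin ubiquitin ligases, was measured as 10 genes. They summed to 931 CPM in DMSO, 1354 in RAC1i and 1446 in Combo. In RAC1i 5 were past the fold higher and 3 lower, and in Combo 6 higher and 2 lower, beside 31.0% and 45.7% of all genes tested in RAC1i and 30.2% and 44.8% in Combo. COPS9 was at 237, 488 and 546 CPM and COPS3 at 144, 302 and 295 CPM, whereas GPS1 was at 152, 99.2 and 109 CPM. COPS5, the catalytic subunit, was at 75.2, 117 and 130 CPM (ratios 1.56 and 1.73). COPS2 had ratios of 1.48 and 1.44, COPS8 of 1.43 and 1.51, COPS7A of 0.711 and 0.720 and COPS6 of 0.720 and 0.829. COPS4 was past the fold in Combo at 1.35.

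The TRiC chaperonin, a ring of 8 subunits that folds actin and tubulin, summed to 2497, 2553 and 2659 CPM. In RAC1i 0 of its genes were past the fold higher and 1 lower (CCT6A, at 273, 203 and 219 CPM), and in Combo 1 was higher (CCT7, at 232, 264 and 291 CPM) and 0 lower, beside the same shares of all genes.

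Barcodes that the limits on cells left out held 4305 CPM of constitutive 26S transcripts in DMSO (2540 barcodes), 9188 in RAC1i (1557) and 9762 in Combo (1518). These barcodes were of unlike kinds: 1592, 534 and 508 of them were over the mitochondrial limit. They held 8285672, 19891175 and 27661804 UMIs in all. No explanation was examined.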
